A study of Homo sapiens with 21 samples.

Results

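Transcripts of 10 plasma membrane amino acid transporters were followed over a dose series of coumarin, a benzopyrone made by plants. The 10 genes were taken by name from a table of 58735 genes: SLC7A11, SLC3A2, SLC7A5, SLC7A1, SLC1A4, SLC1A5, SLC38A1, SLC38A2, SLC7A6 and SLC6A9. All 10 of 10 held enough reads to be tested, among 16699 genes that did. The cells are labelled HepG2, an established line from a human liver tumour. Every group, the untreated one included, was moved from serum-containing to serum-free DMEM and kept in it for 24 h, with coumarin at 0, 0.001, 0.01, 0.1, 1, 10 or 100 µM. Each of the 7 groups had 3 libraries, described in the labels as biological replicates, for 21 in all. P-values measure the spread between these libraries.

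At 100 µM, 8 of the 10 transporter transcripts rose against 0 µM and none fell, where 14.4% of all tested genes rose and 12.9% fell. The neutral amino acid exchangers SLC1A5 and SLC1A4 rose most, 1.9-fold and 1.86-fold, followed by the glycine transporter SLC6A9 at 1.7-fold. SLC3A2, the shared heavy chain, rose 1.49-fold, and its light chains SLC7A11 and SLC7A5 rose 1.37-fold and 1.34-fold. The cationic transporter SLC7A1 rose 1.2-fold and the system A transporter SLC38A1 1.14-fold. SLC38A2 and SLC7A6 did not pass the test. From 0.001 to 10 µM no fitted difference from 0 µM exceeded 0.29 on the log2 scale (SLC6A9 at 0.1 µM).

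Amino acids enter and leave cells through families of solute carriers with overlapping substrates. SLC3A2, also called CD98hc or 4F2hc, is a single-pass glycoprotein that pairs with a light chain of the SLC7 family and brings it to the cell surface. The light chain sets the substrate: SLC7A5 (LAT1) exchanges large neutral amino acids, SLC7A11 (xCT) exchanges extracellular cystine for glutamate and so feeds glutathione synthesis, and SLC7A6 (y+LAT2) exchanges cationic for neutral amino acids. SLC1A4 and SLC1A5 (ASCT1 and ASCT2) are sodium-dependent exchangers of small neutral amino acids, and SLC1A5 also carries glutamine. SLC7A1 (CAT1) carries arginine and lysine without a heavy chain, SLC38A1 and SLC38A2 (SNAT1 and SNAT2) take up glutamine and alanine with sodium, and SLC6A9 (GlyT1) takes up glycine. When amino acids are scarce, the kinase GCN2 phosphorylates eIF2α and translation of the transcription factor ATF4 increases. ATF4 binds a composite site of C/EBP and ATF type, and several of these transporters are known as its targets.

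That composite site gives a view of the members' promoters. Promoter windows of 300 bases (250 before to 50 after each annotated start, RefSeq, GRCh38.p14) were found for 9 of the 10 genes, all but SLC7A11, in 15 windows. The motif TGATGNAA was searched on both strands and was present in 5 of the 15 windows, belonging to 5 genes, and in 3.62% of 35116 windows of all genes. Every window with a match is shown. The 5 genes were among those that rose at 100 µM, and whether a match goes with a rise was not tested. Capitals mark the match, a match on the opposite strand reads as the reverse complement, and each line is 30 bases read 5′ to 3′ on the strand of the gene.
SLC1A4 (chr2:64989381-64989410, plus strand, match from position -7 to 1 of the start site): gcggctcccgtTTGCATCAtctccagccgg
SLC1A5 (chr19:46784893-46784922, minus strand, match from -97 to -90): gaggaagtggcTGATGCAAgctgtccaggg
SLC3A2 (chr11:62881719-62881748, plus strand, match from 38 to 45): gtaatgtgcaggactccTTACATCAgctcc
SLC7A1 (chr13:29595663-29595692, minus strand, match from 8 to 15): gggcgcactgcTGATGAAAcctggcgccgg
SLC38A1 (chr12:46266502-46266531, minus strand, match from -4 to 4): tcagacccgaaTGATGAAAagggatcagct
The windows of SLC7A5 and SLC6A9, which rose as well, and of SLC38A2 and SLC7A6 held no match to these letters. The antioxidant-type motif TGACNNNGC was present in 5 of the 15 windows (of SLC3A2, SLC7A1, SLC7A6, SLC7A5 and SLC1A5) and in 13.3% of all windows. The E-box CACGTG was present in 2 of the 15 windows (of SLC7A5 and SLC1A5) and in 7.26% of all windows. SLC1A5 had 3 windows. Its TGATGNAA match belonged to the start site at 46784814, and its antioxidant-type and E-box matches to another at 46787293. Binding was not measured, and a match is a description of the sequence alone.

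The libraries held 26984563 to 43375429 gene counts each, and the 10 genes together took 0.384% to 0.403% of the counts at 0 µM and 0.485% to 0.498% at 100 µM. Control replicates 2 and 3 stood apart from control replicate 1. The part of the deposited FPKM total beyond the counted genes was 3.91% in control replicate 1, 8.03% and 8.17% in replicates 2 and 3, and 1.04% to 5.43% in the treated libraries. Markers of the labelled cell type were absent: 20 of 20 hepatocyte markers had a mean below 1 CPM (normalised read count, scaled to library size). Their sum was 0.0334 to 0.519 CPM per library, and ALB, TTR, APOC3, RBP4 and FGB had 0 counts in all 21. Marker sums and counts of markers below 1 CPM used the plain library totals. CPM levels printed for single genes used library sizes adjusted by TMM, a scaling between libraries. Summed epithelial markers were 4640 to 4970 CPM at 0 µM and 3570 to 3640 CPM at 100 µM. Of 7 tested, 4 fell (KRT18, KRT8, CLDN4 and SFN), and 12.9% of all tested genes fell at 100 against 0 µM. The sum was led by KRT8 (mean 2497 CPM), KRT18 (1197) and KRT7 (750.5). Of the 12 markers 7 had a mean below 1 CPM: EPCAM, CDH1, KRT19, KRT5, KRT14, KRT20 and CLDN4. Summed fibroblast markers were 1670 to 1690 CPM at 0 µM and 1380 to 1440 CPM at 100 µM, where 3 of 8 tested fell (PDGFRB, FAP and COL3A1). This sum was led by COL3A1 (mean 1211 CPM) and VIM (312). Of the 10 markers 4 had a mean below 1 CPM: COL1A2, THY1, LUM and PDGFRA, the last at 0 throughout. Endothelial and leukocyte markers summed to 5.48 to 7.21 CPM and 4.5 to 6.16 CPM, 1 of 3 tested fell (CDH5), and CD3E and MS4A1 were at 0. The part of these shifts in the transporter results was not tested. In such bulk samples fewer cells of a type and less RNA per cell cannot be told apart.

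The comparison of 100 µM with 0 µM asks which transporter transcripts respond to the highest dose. The count of 8 higher and 0 lower among 10 stands beside 14.4% of all tested genes called higher and 12.9% called lower, 27.3% in either direction (edgeR, threshold of 0.05 on p-values adjusted over all 16699 genes). The median log2 change of the 10 was 0.44, and that of all tested genes was -0.008. The 10 genes were chosen with earlier results of these data known, so their excess over all tested genes is no independent evidence. The 8 calls held in each of 16 alternative fits per gene, control replicate 1 as the lone control included.

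**Figure D1:**
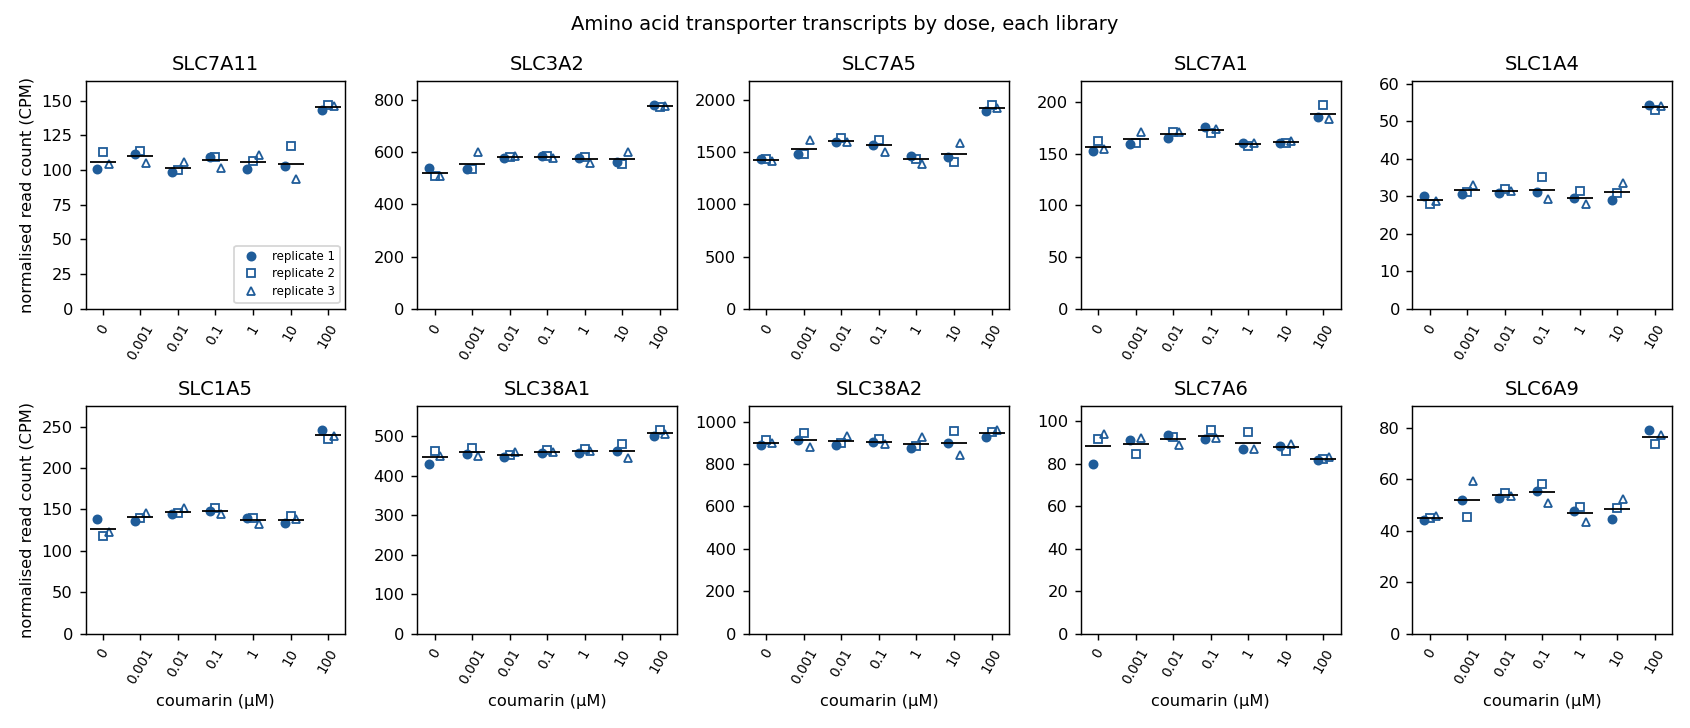
Normalised read counts (CPM, from 0 upward) of the 10 transporters in each of the 21 libraries against the coumarin dose; symbols mark replicate numbers and bars mark group means. In 8 panels the 3 libraries at 100 µM lie above all other libraries, while those of SLC38A2 lie among or just above them and those of SLC7A6 sit low within a narrow range. How many of all tested genes separate in this way was not counted.

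The heavy chain SLC3A2 (ENSG00000168003, GRCh38 chromosome 11, 62856102 to 62888875) had 541.5, 510.6 and 509.2 CPM in control replicates 1 to 3. It had 779, 773 and 779 CPM in the 100 µM libraries. The other 15 libraries lay between 534 and 601.5 CPM, so every library at 100 µM was above every other. The log2 change at 100 µM was 0.58 (SE 0.041, 95% interval 0.50 to 0.66; means 777 ± 3.38 against 520.4 ± 18.2 CPM, SD, n = 3; edgeR adjusted p = 2.83e-14).

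Its light chain SLC7A5 (ENSG00000103257, chromosome 16, 87830023 to 87869488) was the most abundant of the 10. Controls held 1434, 1434 and 1413 CPM, and libraries at 100 µM held 1892, 1946 and 1917 CPM. The 15 libraries at intermediate doses spanned 1387 to 1634 CPM, on both sides of the controls and below all of the 100 µM libraries. The log2 change at 100 µM was 0.43 (SE 0.043; 1918 ± 27.2 against 1427 ± 12.3 CPM; edgeR adjusted p = 2.71e-10).

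SLC7A11, the cystine and glutamate exchanger (ENSG00000151012, chromosome 4, 138164097 to 138242349), had 100.6, 113 and 104 CPM in controls. At 100 µM it had 143, 146.5 and 146 CPM. No other library exceeded 117.5 CPM, a value of the 10 µM group, in which replicate 3 held 93.3 CPM, the lowest of the 21. The log2 change was 0.45 (SE 0.057; 145 ± 1.74 against 106 ± 6.57 CPM; edgeR adjusted p = 3.1e-07). The antisense gene SLC7A11-AS1 overlaps this locus and also rose (log2 change 0.54, SE 0.179; 2.73 ± 0.295 against 1.89 ± 0.411 CPM; edgeR adjusted p = 0.0221). The strand setting of the counts is not given in the sources used here, so reads of a gene and of its antisense partner cannot be told apart. SLC7A11-AS1 held 35 to 114 counts per library beside 2742 to 5594 for SLC7A11.

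SLC7A6, the remaining light chain of the set (ENSG00000103064, chromosome 16, 68264516 to 68301823), had the opposite sign to the other members at 100 µM. Controls held 79.8, 91.5 and 94 CPM, and the 100 µM libraries held 81.6, 82.5 and 83 CPM, so the groups overlapped through control replicate 1. All 15 libraries at 0.001 to 10 µM held more than the 100 µM libraries, at 84.7 to 95.9 CPM. Against 0 µM the log2 difference was -0.10 (95% interval -0.20 to -0.005), which did not pass (edgeR adjusted p = 0.115, unadjusted 0.0405). Without control replicate 1 it was -0.17 (edgeR adjusted p = 0.00576), with upper-quartile scaling -0.14 (adjusted p = 0.0381), and with control replicate 1 as the lone control 0.05 (adjusted p = 0.713), the bounds over 16 alternatives being 0.00576 and 0.713. SLC7A6OS, on the opposite strand of the same locus, held 423 to 770 counts per library beside 2341 to 3870 for SLC7A6.

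SLC1A5 (ENSG00000105281, chromosome 19, 46774883 to 46788594) showed the largest change of the 10. Its controls held 138, 117.5 and 123 CPM, and its libraries at 100 µM held 246, 235 and 239 CPM. The other 15 libraries reached at most 152 CPM. The log2 change was 0.93 (SE 0.045, 95% interval 0.84 to 1.02; 239.9 ± 5.54 against 126 ± 10.7 CPM; edgeR adjusted p = 1.9e-19).

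SLC1A4 (ENSG00000115902, chromosome 2, 64988477 to 65023865) was the least abundant per length. It had 30.2, 27.9 and 28.8 CPM in controls and 54.2, 52.9 and 54.2 CPM at 100 µM, above the 27.9 to 35.2 CPM of the other 15 libraries. The log2 change was 0.89 (SE 0.059; 53.8 ± 0.73 against 28.9 ± 1.17 CPM; edgeR adjusted p = 3.25e-15).

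The glycine transporter SLC6A9 (ENSG00000196517, chromosome 1, 43991500 to 44031467) had 44.1, 45 and 45.8 CPM in controls and 79, 73.5 and 77 CPM at 100 µM. The other 15 libraries spanned 43.5 to 59.1 CPM, with the top value in a library at 0.001 µM. The log2 change was 0.77 (SE 0.069; 76.5 ± 2.79 against 45 ± 0.848 CPM; edgeR adjusted p = 1.85e-09). CCDC24 and AL139220.2 overlap it on the opposite strand, at 94 to 188 and 274 to 523 counts per library beside 1219 to 2953 for SLC6A9.

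Among the remaining members the changes were small against tight replicates. SLC7A1 (ENSG00000139514, chromosome 13, 29509410 to 29595688) had 153, 162 and 154 CPM in controls and 185, 196 and 183 CPM at 100 µM, above all other libraries (log2 change 0.27, SE 0.039; edgeR adjusted p = 1.1e-06). SLC38A1 (ENSG00000111371, chromosome 12, 46183063 to 46270017) had 430.1, 462 and 448 CPM in controls and 500.6, 515 and 506 CPM at 100 µM, also above all others (log2 change 0.18, SE 0.037; edgeR adjusted p = 0.000194).

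SLC38A2 (ENSG00000134294, chromosome 12, 46358189 to 46372867), the neighbour of SLC38A1 on chromosome 12 and its partner in system A transport, had 890.3, 914 and 899 CPM in controls. It had 925, 949 and 959.6 CPM at 100 µM, which did not overlap the controls but, apart from the highest library, lay within the 844 to 953 CPM of the intermediate doses. The log2 difference of 0.07 had a 95% interval of -0.01 to 0.15 and did not pass (edgeR adjusted p = 0.225). A rise of the size seen for SLC38A1 lay outside that interval.

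**Figure D2:**
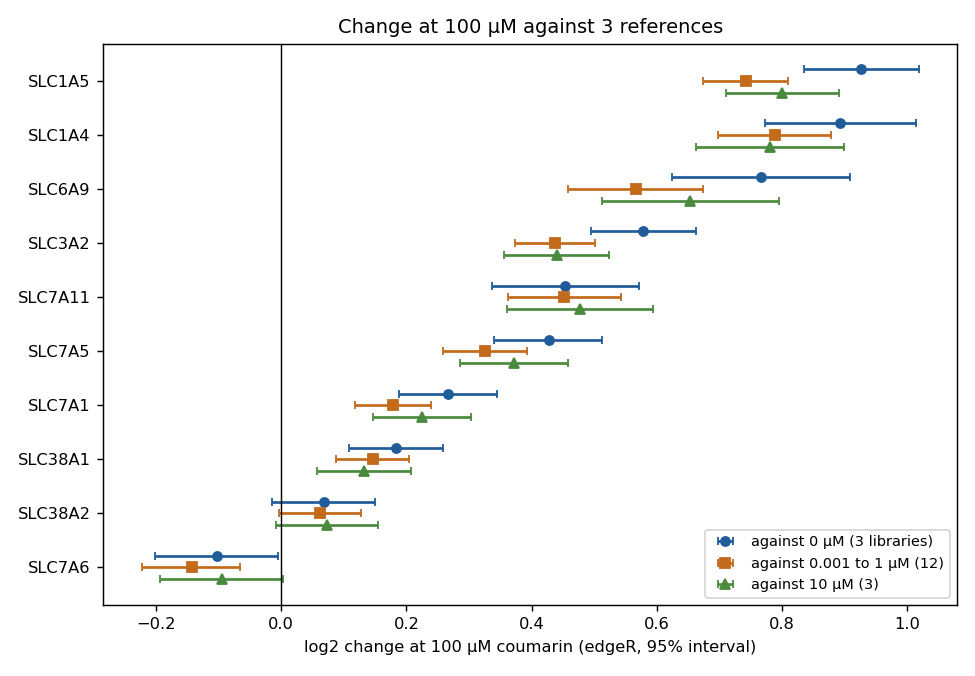
Log2 change at 100 µM (edgeR fit, bars are 95% intervals) for each transporter against 0 µM, against the 12 libraries at 0.001 to 1 µM, and against 10 µM. SLC1A5 and SLC1A4 are at the top with every reference, 8 genes lie to the right of 0 with all 3, and SLC38A2 and SLC7A6 sit at the bottom near or below 0.

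Other references tested the rise at 100 µM without the untreated libraries. Against the 12 libraries at 0.001 to 1 µM, 8 members were higher, beside 16.6% of all tested genes, and 1 was lower, beside 16.5% (edgeR). The member that fell was SLC7A6, by 0.14 on the log2 scale (82.3 ± 0.714 CPM, n = 3, against 91 ± 3.42 CPM, n = 12; edgeR adjusted p = 0.00346), and the groups did not overlap. SLC1A4 rose most in this comparison, with a log2 change of 0.79 (SE 0.044), and SLC1A5 followed with 0.74 (SE 0.034). SLC38A2 had 0.06 (95% interval -0.003 to 0.13; edgeR adjusted p = 0.139).

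The step from 10 to 100 µM gave 8 higher and 0 lower, beside 8.22% of all tested genes called higher and 10% called lower (edgeR). The log2 changes were 0.80 for SLC1A5, 0.78 for SLC1A4, 0.65 for SLC6A9, 0.48 for SLC7A11, 0.44 for SLC3A2, 0.37 for SLC7A5, 0.23 for SLC7A1 and 0.13 for SLC38A1. SLC38A1 and SLC38A2 rested on single 10 µM libraries here. Without 10 µM replicate 3, SLC38A1 had 0.11 (edgeR adjusted p = 0.0573, against 0.0013 to 0.0573 over its 15 alternatives). Without 10 µM replicate 2, SLC38A2 had 0.12 (edgeR adjusted p = 0.0437, against 0.0437 to 0.69).

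Below 100 µM the differences were small, and some depended on the controls. At 0.01 µM 4 members were higher than at 0 µM in edgeR, beside 5.86% of all tested genes called in either direction: SLC6A9 (log2 change 0.25), SLC1A5 (0.22), SLC7A5 (0.17) and SLC3A2 (0.16). At 0.1 µM 4 were higher, beside 6.45%: SLC6A9 (0.29), SLC1A5 (0.23), SLC3A2 (0.17) and SLC7A1 (0.15). Against control replicate 1 alone, the log2 differences at 0.01 µM were 0.29 (SLC6A9), 0.10 (SLC1A5), 0.17 (SLC7A5) and 0.11 (SLC3A2). At 0.1 µM they were 0.31 (SLC6A9), 0.10 (SLC1A5), 0.11 (SLC3A2) and 0.18 (SLC7A1). Those of SLC1A5 and SLC3A2 were thus smaller than with all controls, and the others were about as large or larger. A single control library gives less power, so calls against it could not decide this. Without control replicate 2 or 3, 2 or 1 passed at 0.01 µM and 2 or 2 at 0.1 µM. At 0.01 µM SLC6A9 lost its call when any 1 library of either group was left out (edgeR adjusted p = 0.0679 to 0.122). It was also not called with upper-quartile scaling (edgeR adjusted p = 0.0537) or in limma on log2(FPKM + 1) (limma adjusted p = 0.068). SLC1A5 kept its call at both doses when any 1 library was left out, yet against control replicate 1 alone its log2 difference was only 0.10 at each.

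At 0.001, 1 and 10 µM 0 of 10 members passed in edgeR, beside 1.53%, 2.01% and 2.62% of all tested genes. At an unadjusted p under 0.05 the counts were 5, 2 and 2, with SLC3A2 and SLC1A5 among them at each dose. The percentages hold for adjusted p, and the share of all tested genes at unadjusted p was not computed. At 0.001 µM the SLC1A4 value (edgeR unadjusted p = 0.0446) ranked 1876 of 16699, so 5 of 10 cannot be set against 1.53%. DESeq2 called 1 at each of 0.001, 1 and 10 µM (SLC1A5 at 0.001 µM and SLC3A2 at 1 and 10 µM), and limma on log2(FPKM + 1) called 0. The largest of these differences was that of SLC6A9 at 0.001 µM (log2 0.21, edgeR adjusted p = 0.167), where the 3 libraries held 51.7, 45.1 and 59.1 CPM. Against 0.001 to 1 µM, the 10 µM group likewise gave 0 of 10, with 0 at an unadjusted p under 0.05 and 0 in DESeq2 and limma, beside 2.62% of all tested genes. In the test of all 7 groups at once 8 of 10 passed, beside 30.0% of all tested genes. The exceptions were SLC38A2 (edgeR adjusted p = 0.662) and SLC7A6 (adjusted p = 0.0814).

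Levels of different genes were compared on the deposited FPKM, which is scaled by gene length. At 0 µM the order was SLC7A5 (288 ± 2.73 FPKM, SD, n = 3), SLC38A2 (131 ± 1.47), SLC3A2 (96.3 ± 3.58), SLC38A1 (42.8 ± 1.43), SLC1A5 (36.3 ± 3.15), SLC7A1 (19.5 ± 0.605), SLC7A6 (11.2 ± 0.937), SLC7A11 (10.5 ± 0.633), SLC6A9 (8.35 ± 0.145) and SLC1A4 (4 ± 0.17). The SLC7A6 and SLC7A11 libraries overlapped, and no other neighbours in this order did. At 100 µM SLC3A2 (144 ± 0.697 FPKM) stood above SLC38A2 (138 ± 2.3) and SLC1A5 (69.3 ± 1.69) above SLC38A1 (48.7 ± 0.692). SLC7A11 (14.5 ± 0.154) and SLC6A9 (14.3 ± 0.529), which overlapped each other, both stood above SLC7A6 (10.4 ± 0.0694).

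The sum over the 10 genes was 648 ± 5.66 FPKM at 0 µM, between 666.7 and 710.3 at 0.001 to 10 µM as group means, and 859 ± 5.45 at 100 µM. SLC7A5 held 44.5% of it at 0 µM and 45.3% at 100 µM. The share of SLC1A5 was 5.6% ± 0.456 at 0 µM and 8.06% ± 0.245 at 100 µM, and that of SLC38A2 was 20.2% ± 0.305 and 16% ± 0.216.

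**Figure D3:**
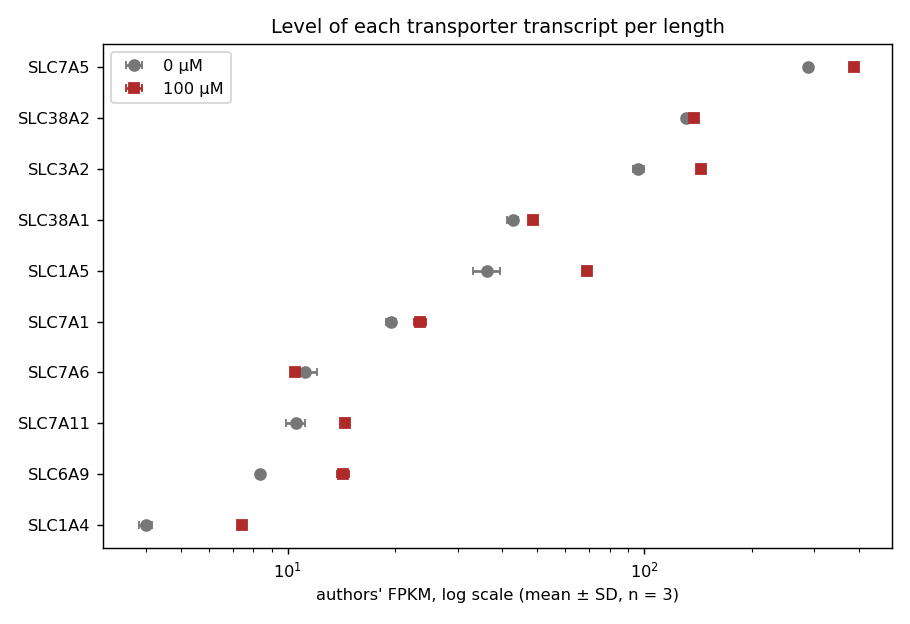
Level of each transporter transcript per length (deposited FPKM on a log axis, mean ± SD, n = 3 libraries) at 0 and 100 µM, ordered by the level at 0 µM. SLC7A5 leads at both doses (288 and 389 FPKM), SLC1A5 moves past SLC38A1, and SLC7A6 is the only gene whose mean at 100 µM lies left of that at 0 µM.

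Ratios between members were taken within each library from the FPKM, so that scaling between libraries does not enter. An exact two-sided permutation test was used, which cannot go below p = 0.1 for 3 libraries against 3, and p-values were adjusted over the 6 ratios of a comparison. SLC7A5 to SLC1A5 was 5.4 to 5.82 at 100 µM, 7.29 to 8.57 at 0 µM and 7.21 to 7.91 at 0.001 to 1 µM, with no overlap (exact adjusted p = 0.0132 against the 12 low-dose libraries). SLC7A6 to SLC7A5 was 0.0265 to 0.0271 at 100 µM against 0.0348 to 0.0416 at 0 µM and 0.0348 to 0.0414 at the low doses (exact adjusted p = 0.0132). SLC1A5 thus gained on SLC7A5, and SLC7A6 lost against it.

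The ratio of the heavy chain to its light chains, SLC3A2 over the sum of SLC7A5, SLC7A6, SLC7A7, SLC7A8, SLC7A10 and SLC7A11, was 0.347 at 100 µM, 0.308 at 0 µM and 0.318 at 0.001 to 1 µM (means). The groups at 100 and 0 µM did not overlap, but the low doses reached 0.342, above the lowest value of 0.341 at 100 µM (exact adjusted p = 0.0132 against the low doses). The pooled doses were not alike, with 0.305 to 0.316 at 0.001 µM and 0.336 to 0.342 at 1 µM, so a higher ratio was not confined to 100 µM. SLC38A1 to SLC38A2 was 0.354 at 100 µM, 0.327 at 0 µM and 0.334 at the low doses, again overlapping the latter (exact adjusted p = 0.0132). The ratios of SLC7A11 to SLC7A5 (means 0.0372, 0.0365 and 0.0341; exact adjusted p = 0.121 against the low doses) and of SLC1A4 to SLC1A5 (0.108, 0.11 and 0.104; exact adjusted p = 0.233) did not pass and overlapped both references. The log2 difference of the SLC7A11 to SLC7A5 ratio against 0 µM was 0.03, and it was -0.01 without control replicate 1.

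**Figure D4:**
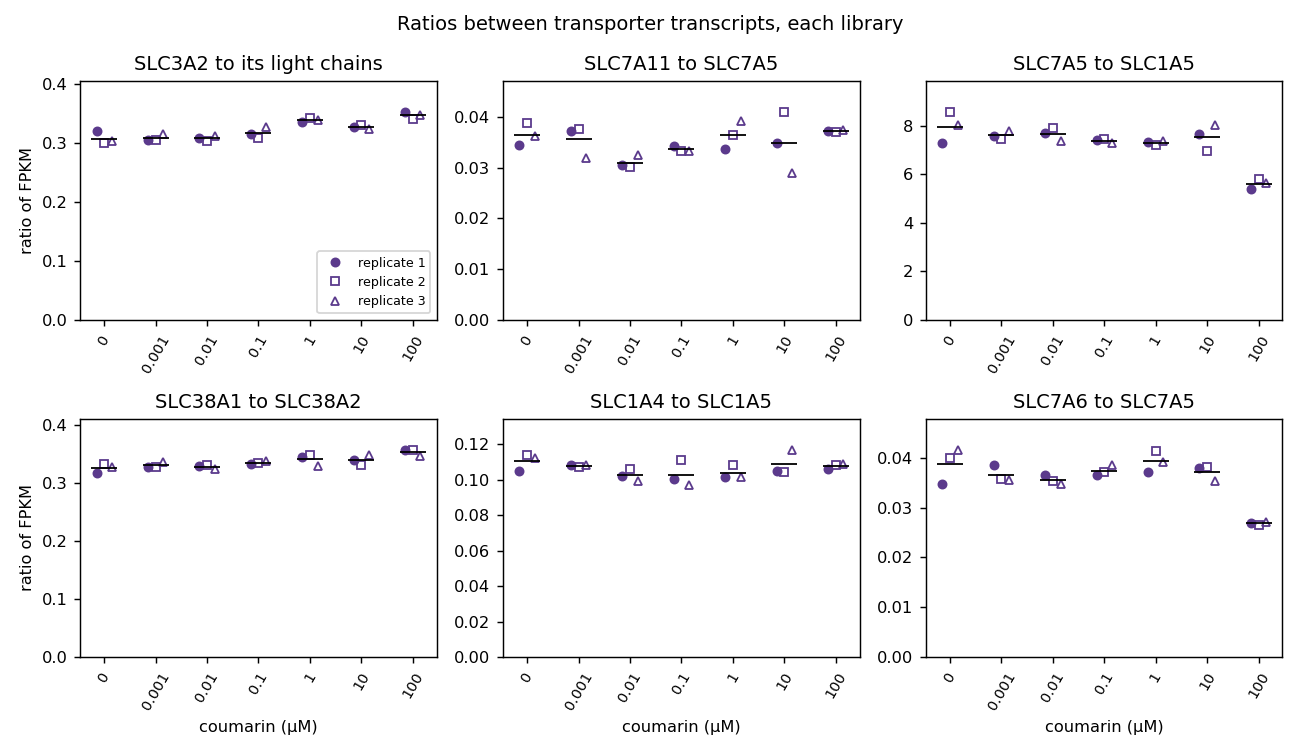
Within-library ratios of deposited FPKM between pairs of transporters, from 0 upward, in each of the 21 libraries against dose; symbols mark replicate numbers and bars mark group means. At 100 µM the ratio of SLC7A5 to SLC1A5 (5.4 to 5.82) and that of SLC7A6 to SLC7A5 (0.0265 to 0.0271) lie below every other library, while the SLC1A4 to SLC1A5 ratio lies among the others.

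Of 30 further plasma membrane amino acid transporters 15 were tested and 12 had a mean of at least 1 CPM. At 100 µM 3 of the 15 rose (20%) and 1 fell (6.67%) against 0 µM, with a median log2 change of -0.05 (edgeR). These shares were near those over all tested genes, 14.4% and 12.9%. The glutamate and aspartate transporter SLC1A3 rose 1.81-fold (62.4 ± 3.22 against 34.5 ± 0.9 CPM; edgeR adjusted p = 5.42e-16). SLC43A1 (LAT3), a facilitative carrier of large neutral amino acids, had a log2 change of 0.50 and SLC7A2 (CAT2), a cationic transporter, 0.27. The gene that fell was SLC7A8 (LAT2), another light chain of SLC3A2, by 0.48 on the log2 scale (12.2 ± 0.988 against 17 ± 0.751 CPM; edgeR adjusted p = 7.85e-06). Of the 5 light chain genes tested, SLC7A5 and SLC7A11 thus rose, SLC7A8 fell, and SLC7A6 and SLC7A7 did not pass.

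Of 16 tested amino acid carriers of lysosomes and mitochondria 3 rose at 100 µM (SLC25A22, log2 change 0.24; SLC38A7, 0.18; SLC25A15, 0.17) and SFXN3 fell by 0.34, with a median of 0.04 (edgeR). That is 18.8% higher and 6.25% lower, again near the 14.4% and 12.9% over all tested genes. Over all 245 tested genes with an SLC symbol, a list taken up after values had been seen, 18.8% rose and 15.1% fell, with a median of 0. A list of partners and turnover factors of the transporters, which also held the antisense RNA SLC7A11-AS1, had 9 tested genes, of which 5 fell and 2 rose. The rises were SLC7A11-AS1, described above, and the chaperone BSG (log2 change 0.13). The ubiquitin ligase NEDD4 fell by 0.25, the xCT partner CD44 by 0.21 and the CD98 partner ITGB1 by 0.14 (log2, edgeR).

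Genes that act beside amino acid uptake were counted in the same comparison, and these lists were known to respond from earlier work on these libraries, so they are no independent evidence of direction. The genes named from each list are the 4 with the smallest p, whatever the size of their change. Over all tested genes 14.4% rose and 12.9% fell. Of 19 regulators of the amino acid response 14 rose and 1 fell, with a median log2 change of 0.63 (edgeR). The 4 were the pseudokinase TRIB3 (log2 change 1.38), the stress protein NUPR1 (1.33), the glutathione-degrading enzyme CHAC1 (3.00) and the leucine sensor SESN2 (1.25). Of 20 genes of amino acid synthesis 14 rose and 1 fell, with a median of 0.54. The 4 were PSAT1 (1.58), which acts in serine synthesis, PCK2 (1.45), ASS1 (1.21) and PHGDH (1.02), also of serine synthesis. The largest log2 change on that list was 2.81, for the asparagine synthetase ASNS, which is named here after its values were seen. Of 20 cytosolic aminoacyl-tRNA synthetases 16 rose and 0 fell, with a median of 0.45. The 4 were WARS (1.34), GARS (1.10), SARS (0.94) and MARS (1.01).

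At 10 µM against 0 µM the synthetases had 9 of 20 higher and the synthesis genes 6 of 20, with 0 lower in both, where 0 of 10 transporters passed (edgeR). Over all tested genes 1.74% were higher and 0.874% lower at this dose. The medians were 0.14, 0.10 and 0.05. Whether the lists differ at this dose was not tested.

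Glutathione genes and targets of NRF2, a group that includes SLC7A11 in textbook accounts, moved in both directions: 7 of 21 tested rose (33.3%) and 5 fell (23.8%), beside 14.4% and 12.9% of all tested genes, with a median of -0.003 (edgeR). SRXN1, which reduces oxidised peroxiredoxins, had a log2 change of 0.53 and PGD, of the pentose phosphate pathway, 0.19. TALDO1 of the same pathway fell by 0.18 and the quinone reductase NQO1 by 0.17. Genes of amino acid sensing by mTORC1 had 3 of 25 higher (12%) and 4 lower (16%), near the 14.4% and 12.9% over all tested genes, with a median of 0.01. SESN2, counted above as well, was the largest rise, and BMT2 fell by 0.49, CASTOR2 by 0.49 and DEPTOR by 0.42.

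**Figure D5:**
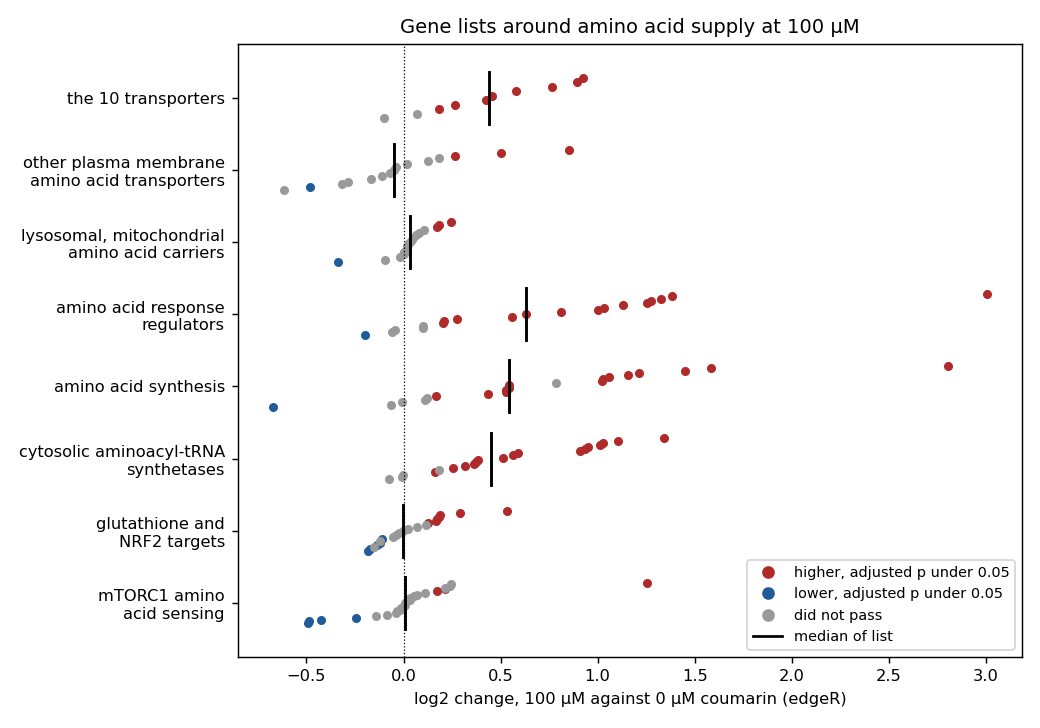
Log2 change at 100 against 0 µM (edgeR) of every tested gene in 8 lists around amino acid supply; colours give the call and black bars the list medians. Medians of the 10 transporters (0.44), the regulators (0.63), the synthesis genes (0.54) and the synthetases (0.45) lie right of 0, and those of the other 4 lists lie between -0.05 and 0.04.

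The patterns of 3 members over the 21 libraries were set against 11471 protein-coding genes of at least 1 CPM, as a description with no test, since the libraries share doses and depth. SLC3A2 was most like AARS, the alanyl-tRNA synthetase (Pearson r of log2 CPM 0.987 over 21 libraries and 0.923 over the 18 without 100 µM), CDKN1A (0.981 and 0.872), ERP29 (0.977 and 0.863) and SLC1A5 (0.972 and 0.791). SLC7A11 was most like GFPT1 (0.954 and 0.736), RHOBTB3 (0.948 and 0.754), GLRX2 (0.935 and 0.638) and SLC38A1 (0.926 and 0.703). SLC38A2 had no gene above 0.833, the value of RBM26 (0.825 without 100 µM), followed by LPGAT1 (0.83), MTPN (0.819) and DHX36 (0.809). Other members were thus among the 4 nearest genes of SLC3A2 and of SLC7A11, and not of SLC38A2.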

How the data were processed

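Per the labels, polyadenylated RNA of 21 libraries was isolated on poly(dT) beads. Raw counts per gene and FPKM (counts over gene length and a library total) were deposited by the authors. The submitters' processing notes name HISAT2, DESeq2 and GRCh38 and no versions. The counter is not given in the sources. Gene positions are those of the deposited table.

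The members and all gene lists were chosen with earlier results of these data known. Counts were tested in R 4.3.3 with edgeR 4.0.16 (filterByExpr, TMM, robust quasi-likelihood F test, two-sided, all 21 libraries fitted together, 14 residual degrees of freedom). Benjamini-Hochberg adjustment ran over 16699 genes, and "rose" and "fell" are used of what passed 0.05. Promoter windows on chromosome 8 were not used. Ratios were tested with SciPy 1.17.1. Named were all members, other transporters of at least 1 CPM that passed, and up to 4 genes with the smallest p-values of each other list. Scripts were tested on simulated data.

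Alternatives were RLE and upper-quartile scaling, no filter, 1 CPM in 3 libraries, only the groups compared, a replicate block, limma 3.58.1 (log2 of FPKM with pseudocounts of 1 and 0.1), DESeq2 1.42.0, control replicate 1 alone, an adjusted p under 0.01, and leaving out each library.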

Additional observations from a re-analysis of the deposited data

How the results depend on the processing

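The 8 rises at 100 µM against 0 µM held under every alternative run, an adjusted p under 0.01 included (8 members), and leaving out 1 library gave 8 to 9 members called, the ninth being SLC7A6 without control replicate 1. Without a filter 2, 1 and 1 members were called at 0.001, 1 and 10 µM against 0 µM, where the reported count was 0 (SLC1A5 and SLC6A9, then SLC3A2, then SLC3A2), and DESeq2 called 1, 1 and 1. Against control replicate 1 alone the log2 differences of SLC1A5 and SLC3A2 at 0.01 and 0.1 µM were smaller, and those of SLC6A9 were larger. The SLC6A9 call at 0.01 µM was lost when any 1 library of either group was left out. Leaving out 1 library gave 0 to 1 at 0.001 µM, 1 to 3 at 0.01 µM, 1 to 4 at 0.1 µM, 0 to 2 at 1 µM and 0 to 2 at 10 µM. The libraries that moved these counts were control replicate 1 (1, 2 and 2 at 0.001, 1 and 10 µM without it), 0.001 µM replicate 2 (1), control replicates 2 and 3 (2 and 1 at 0.01 µM, 2 and 2 at 0.1 µM), 0.01 µM replicate 2 (1) and 0.1 µM replicates 1 and 2 (1 and 2). Leaving out 1 library gave 7 to 9 for 100 against 10 µM, 9 for 100 against 0.001 to 1 µM and 0 for 10 against 0.001 to 1 µM. The log2 difference of the SLC7A11 to SLC7A5 ratio against 0 µM ran from -0.011 to 0.075 when 1 library was left out, and it changed sign to -0.011 without control replicate 1, where the cause was not tested.

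A fit with the replicate number as a block called 8 members at 100 µM and changed no member count. Treated libraries did not deviate together with the control of the same number (18 pairs, correlations from -0.099 to 0.052, 0 over 0.1). Same-numbered libraries of different treated groups were not set against each other, so this check cannot exclude a pairing among them. Each member held at least 787 counts in every library. With 3 libraries a group, standard errors of 0.037 to 0.069 (log2, 100 against 0 µM) limited what could be called. Calls over all tested genes ranged over the alternatives from 47 to 421 at 0.001 µM (256 reported), 302 to 1326 at 0.01 µM (978), 233 to 1306 at 0.1 µM (1077), 31 to 663 at 1 µM (335), 91 to 649 at 10 µM (437) and 2222 to 4824 at 100 µM (4558), with control replicate 1 alone the lowest from 0.01 µM upward. They ranged from 127 to 581 for 10 against 0.001 to 1 µM (438).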

Other observations

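The deepest library, 10 µM replicate 3 with 43375429 counts, held the lowest SLC7A11 (93.3 CPM) and SLC38A2 (844 CPM) of all 21 libraries. Among the libraries from 0 to 10 µM it also held the highest SLC3A2 (601.5 CPM), though 0.001 µM replicate 3 was close to it at 600.6 CPM. The other 10 µM libraries held 103 and 117.5 CPM of SLC7A11 and 562.5 and 554 CPM of SLC3A2. The depth and the levels of these genes in that library cannot be told apart.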
